A study of Mus musculus with 16 samples.

Results

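The large subunit of the ribosome, the 60S particle, is built in the nucleolus by a succession of assembly factors that bind ribosomal RNA, load ribosomal proteins and leave again. Described here are the transcripts of 54 such factors in mouse 2-cell embryos. The genes were taken by symbol from a list of known large subunit assembly factors, and all 54 were found among the 49585 identifiers of each gene table. The list was chosen with earlier results of these data known. Each has a p-value and an adjusted p in every table, so no member was lost to a filter on low values.

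Early in the nucleolus, scaffold proteins, RNA helicases and methyltransferases fold the precursor of the large ribosomal RNA. GTPases and ATPases then check and remodel the particle, a nuclease complex removes the second internal spacer (ITS2), and an export adaptor takes the particle to the cytoplasm, where the last placeholders are exchanged for ribosomal proteins. A mouse 2-cell embryo has just begun to transcribe its own genome and starts to make new ribosomes beside those inherited from the egg.

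The knockdown group comprised 6 libraries from zygotes that had received dsSuv39h2, double-stranded RNA against the histone H3 lysine 9 methyltransferase gene Suv39h2. A LacZ control group of 6 libraries came from zygotes given dsLacz, double-stranded RNA against a bacterial gene, and 4 libraries came from non-injected embryos. Every embryo had a DBA father and an F1 mother (C57BL/6J × CBA/H), and culture was in KSOM. The design text speaks of pools of 5 embryos and the extraction label of a single embryo, and the labels do not say which embryos shared a litter or a day. The treatment label common to all samples names Suv39h1 mRNA, wild type or mutant, which no group received according to its own label.

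All fold changes below are log2 values of the first-named group over the second with their standard errors, as the authors' deposited table for each comparison gives them. A gene is called where the adjusted p of that table, from DESeq2, is under 0.05. Values of single libraries were not used here, so neither the depth nor the spread of a member within a group can be shown, and the groups are compared only through those fold changes. In libraries of whole embryos, single or pooled, fewer cells (or embryos, where pooled) with a transcript and less of it per cell cannot be told apart. The comparisons share libraries: for every member the value of knockdown over non-injected is the sum of the other comparisons' values, so they are set side by side and not counted as separate support for each other.

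Suv39h2 itself stood at -1.95 ± 0.28 in knockdown over LacZ control (adjusted p = 4.72e-08) and at 0.16 ± 0.29 in LacZ control over non-injected according to the authors' deposited table, at an adjusted p of 0.998. Of 10 markers of the 2-cell stage 9 were matched, with mean normalized counts of 114 to 2987, and 14 of 14 oocyte markers had counts of 38.4 to 8077. Cumulus and granulosa markers had a median count of 0.667 over 11 genes, with Inhba at 0, Fshr at 0.05 and Foxl2 at 0.16, but 4 of them stood higher, namely Amhr2 at 406.87, Kitl at 49.84, Tnfaip6 at 36.47 and Cyp19a1 at 16.11. The 6 sperm markers had counts of at most 7.78. In knockdown over non-injected 5 of 9 markers of the 2-cell stage and 6 of 14 oocyte markers were called higher and 0 lower. Of all genes with an adjusted p 1108 of 14948 were called higher there, and 696 of the 7722 with a mean count of 100 or more. In LacZ control over non-injected 2 markers of the 2-cell stage were called higher, beside 155 of 29288 genes (59 of the 7722). DESeq2 called 0 of either list in knockdown over LacZ control. There 4 oocyte markers were higher at an unadjusted p under 0.05, beside 1329 of 33028 genes with a p-value (435 of the 7722). Called markers with the smallest adjusted p were Nobox (1.27 ± 0.28) and Tdpoz3 (1.17 ± 0.27) in knockdown over non-injected and Tcstv1 (1.05 ± 0.26) in LacZ control over non-injected, by the authors' deposited table. Oocyte and 2-cell markers were thus called in the comparison in which most members described below were called, and their part in those results was not tested.

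All 54 members are protein-coding and lie on 19 chromosomes. Their level can be compared per length only, as the mean normalized count over the libraries divided by the kilobases of exon annotated for the gene. On that scale the members spanned 7.16 to 2030 counts per kb with a median of 158. The highest were Rsl1d1 (2030), a nucleolar protein, Eif6 (1870), which keeps the immature large subunit from joining the small one, and Rsl24d1 (1590), the placeholder for Rpl24. Nop16 (1410) and Brix1 (1230) followed. The lowest were Efl1 (7.16), the GTPase that releases Eif6, Urb1 (10.2), a scaffold of the earliest particle, and the helicase Ddx55 (20.4). Eif6 and its releasing factors thus had unequal values on this scale: Eif6 stood at 1870 counts per kb, Sbds at 579 and Efl1 at 7.16. Without values per library it cannot be said which neighbours in this order differ beyond their spread. The length is the union of all annotated transcripts, so a gene with many of them reads lower per kb. For Efl1 the union is 5676 bases and the longest transcript 3610. Of the 54 members 52 had a mean count of 100 or more, and the others were Urb1 (83.3) and Efl1 (40.6).

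**Figure D1:**
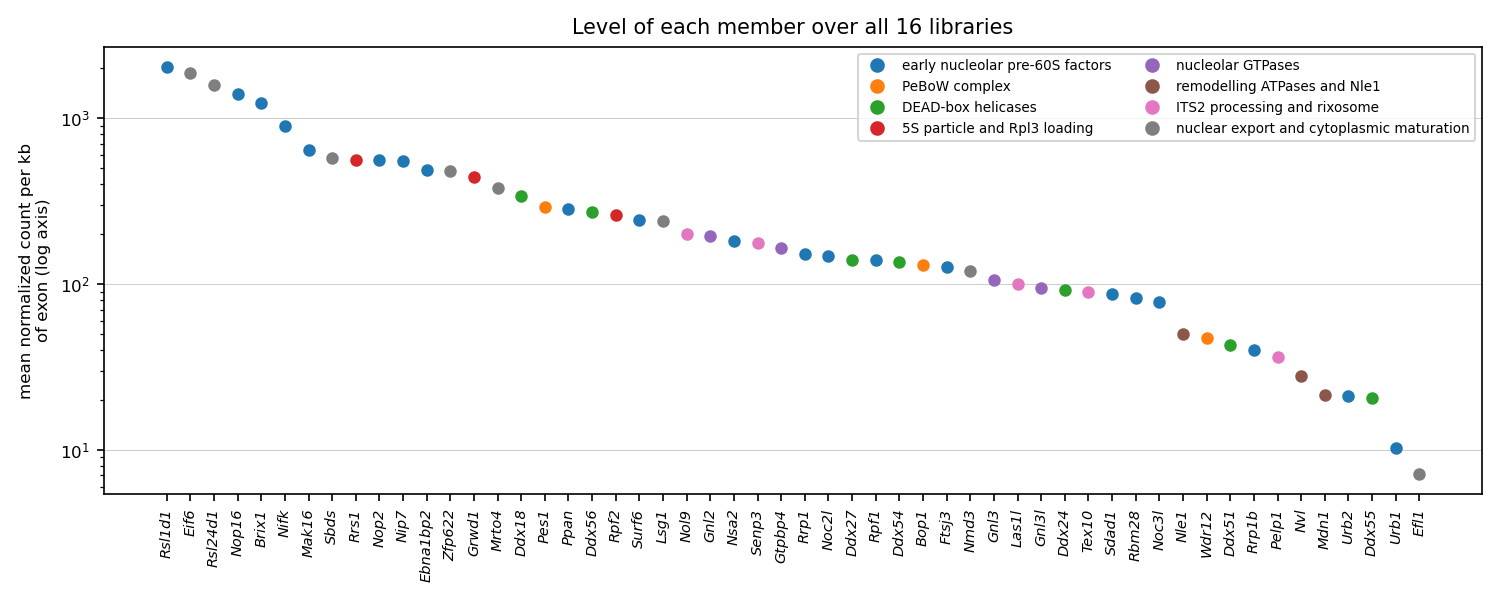
Mean normalized count per kilobase of annotated exon (log axis) for each of the 54 members, ordered from high to low and coloured by role, over the 16 libraries. Rsl1d1, Eif6 and Rsl24d1 are highest, and the remodelling ATPases, Urb1, Urb2, Ddx55 and Efl1 lie at the low end.

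Most members were lower in knockdown than in non-injected embryos: 32 of 54 (59.3%) were called lower with 0 called higher. Over all genes 7.76% were called lower in this comparison, and 13.5% of the genes with a mean count of 100 or more. Because the members were chosen with earlier results of these data known, these shares describe them and are no test. The median log2 fold change of the members was -0.72, a 1.65-fold difference, beside 0.05 over all genes with an adjusted p and -0.08 over genes with a count of at least 100. Of the 54 values 53 lay below 0, the exception being Efl1, beside 4274 of the 7722 genes with a count of at least 100. According to the authors' deposited table the members with the lowest fold changes were Zfp622 (-1.92 ± 0.33, adjusted p = 9.4e-06), which acts in the final cytoplasmic steps, Urb1 (-1.61 ± 0.38, adjusted p = 0.000691), Ppan (-1.26 ± 0.25, adjusted p = 0.000111) and Grwd1 (-1.24 ± 0.25, adjusted p = 0.000152). Ranked by the deposited statistic from the lowest of 14948 genes, Zfp622 came at place 6, Ppan at 27, Grwd1 at 36 and Urb1 at 106.

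Between knockdown and LacZ control, both injected, Zfp622 was the only member called. It fell by 1.41 ± 0.32 according to the authors' deposited table, at an adjusted p of 0.0108, a 2.65-fold difference. That is 1 of 54 members, or 1.85%, against 0.533% of all genes called lower and 0.958% of genes with a mean count of 100 or more. Of the 54 values 53 lay below 0 (50 after centring on the genes with a count of at least 100), beside 4503 of the 7722 genes at that count. As above, such counts and shares over the chosen members describe them and are no test. The median was -0.47 (1.39-fold), beside 0.02 over all genes with an adjusted p and -0.08 over the more abundant ones. At an unadjusted p under 0.05, 26 members (48.1%) were lower and 0 higher, against 4.11% of all genes with a p-value and 13.8% of genes at 100 counts or more. Next after Zfp622 came Nifk at -0.72 ± 0.20 (adjusted p = 0.0514) and Urb1 at -1.14 ± 0.37 (adjusted p = 0.0679) in the authors' deposited table. Brix1 stood at -0.84 ± 0.26 (adjusted p = 0.0811), Nip7 at -0.77 ± 0.23 (adjusted p = 0.0694) and Mak16 at -0.65 ± 0.21 (adjusted p = 0.0735) in the authors' deposited table.

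In LacZ control over non-injected, which holds injection and double-stranded RNA but no Suv39h2 target, DESeq2 called 0 of 54 members in either direction, where 0.263% of all genes and 0.155% of those at 100 counts or more were called lower. The median of the members was -0.27 (1.21-fold), beside 0.00 over all genes. Of the 54 values 44 lay below 0, beside 3858 of the 7722 genes at 100 counts or more. At an unadjusted p under 0.05, 7 members (13.0%) were lower and 0 higher, against 2.62% of all genes with a p-value and 6.02% at 100 counts or more. The smallest of those p-values belonged to Ppan, at -0.72 ± 0.25 (p = 0.00428, adjusted p = 0.239), and Sdad1, at -0.65 ± 0.23 (p = 0.00499, adjusted p = 0.258), in the authors' deposited table, by DESeq2.

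**Figure D2:**
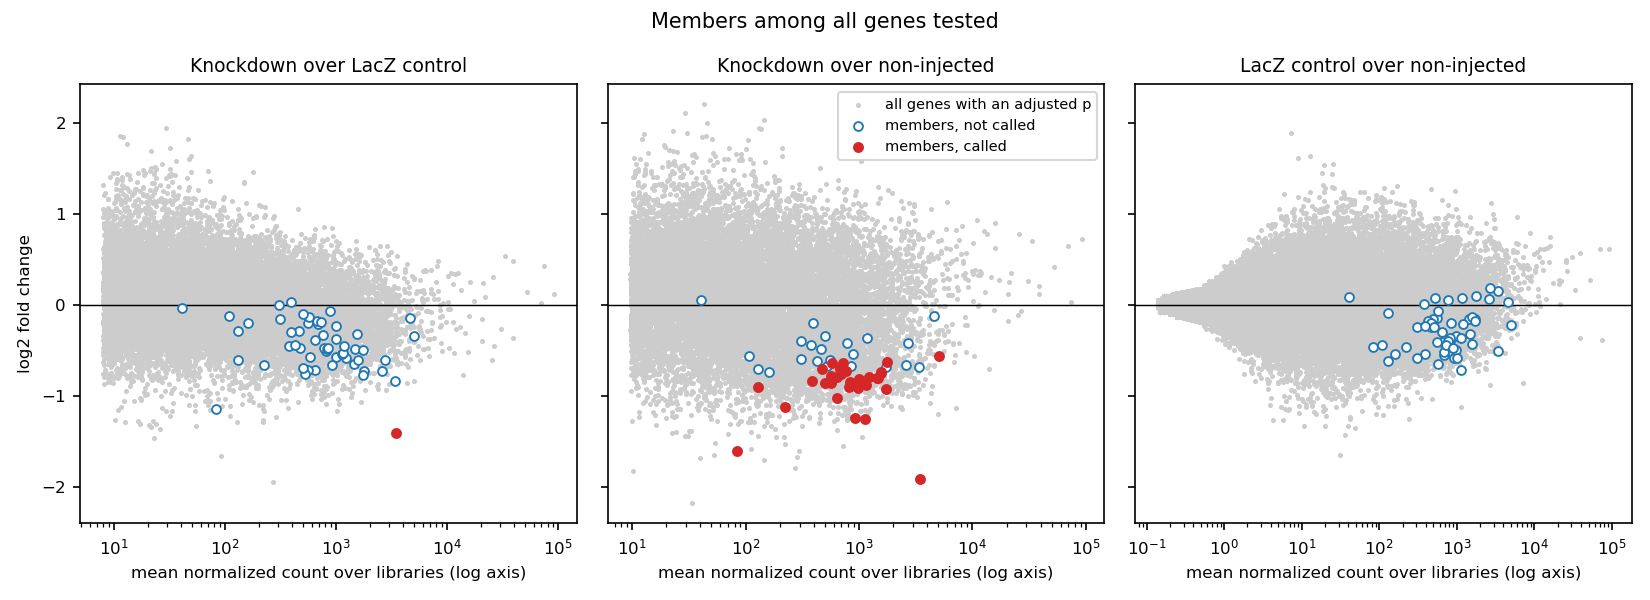
Log2 fold change against the mean normalized count over libraries (log axis) in the 3 comparisons, with all genes that have an adjusted p in grey, members not called as open circles and called members filled. The members lie mostly below 0 at mean counts above 100; 1 is called in knockdown over LacZ control, 32 in knockdown over non-injected and 0 in LacZ control over non-injected.

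Knockdown over LacZ control and LacZ control over non-injected hold the LacZ libraries with opposite sign, so that an error in those libraries moves a member's values in the 2 comparisons in opposite directions. The following genes were chosen after their values were seen, as examples of unequal values. Brix1, which binds the early particle, stood at -0.84 ± 0.26 in knockdown over LacZ control and at 0.15 ± 0.28 in LacZ control over non-injected in the authors' deposited table. Rsl24d1 likewise stood at -0.61 ± 0.20 and 0.19 ± 0.21, and Gnl3l at -0.76 ± 0.29 and 0.08 ± 0.31, in the same order, according to the authors' deposited table. Values in the other order belonged to Rrp1b, with -0.01 ± 0.22 in knockdown over LacZ control and -0.59 ± 0.24 in LacZ control over non-injected in the authors' deposited table. Sdad1 (-0.13 ± 0.22 and -0.65 ± 0.23), Surf6 (-0.23 ± 0.23 and -0.58 ± 0.25) and Ddx56 (-0.21 ± 0.21 and -0.55 ± 0.23) were of that kind in the authors' deposited table. None of these 7 genes was called in either comparison, and whether their pattern differs from that of the other members was not tested.

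**Figure D3:**
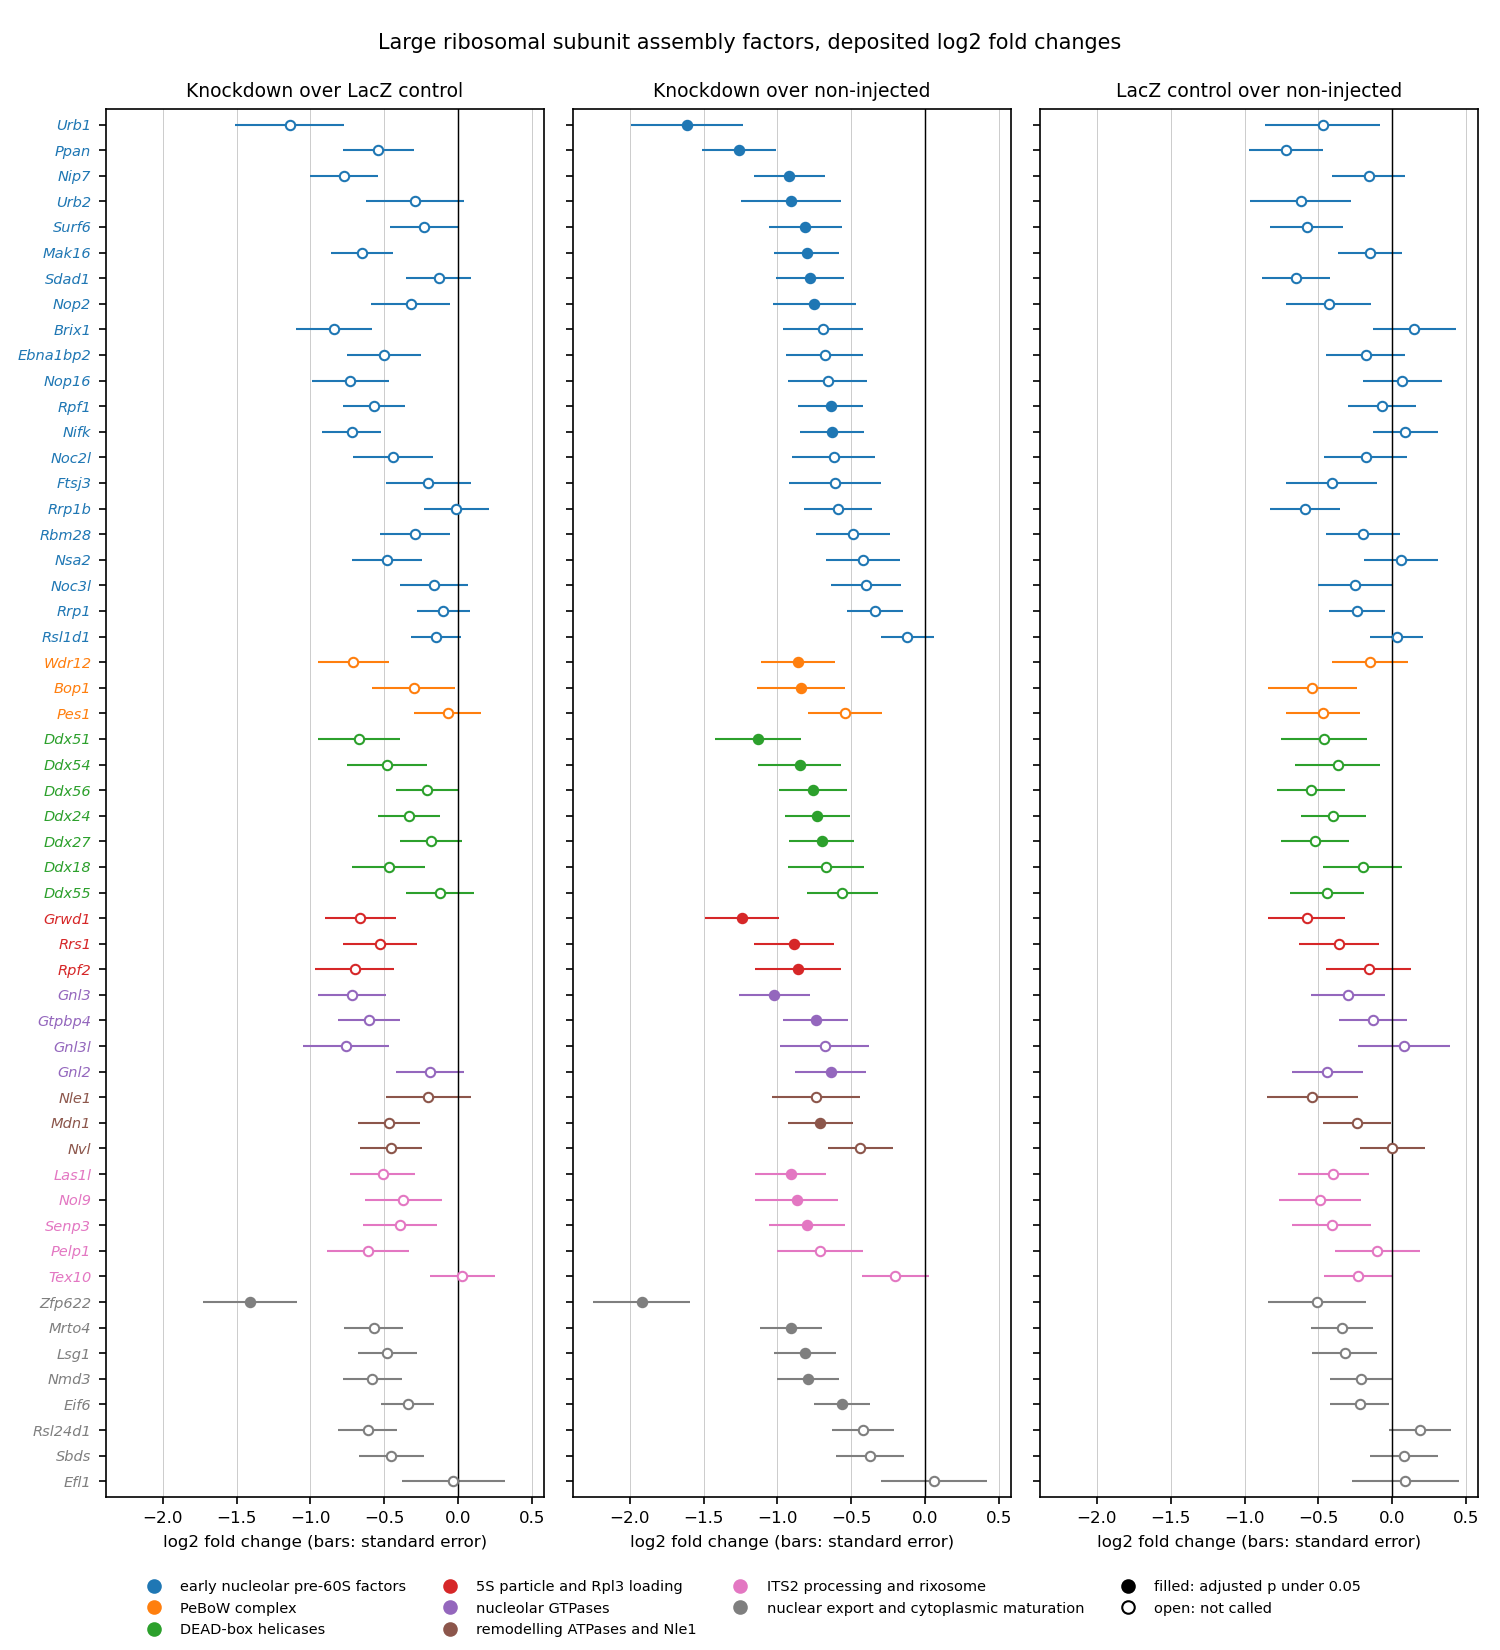
Deposited log2 fold changes with standard errors for every member, grouped and coloured by role, in knockdown over LacZ control (left), knockdown over non-injected (middle) and LacZ control over non-injected (right); filled points are called. Nearly all points lie left of 0 in the left and middle panels, and Zfp622 is the lowest point in both.

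Counts by role, here and in the paragraphs below, rest on few genes and are no test. They stand beside 7.76% of all genes called lower in knockdown over non-injected (13.5% at a mean count of 100 or more). In knockdown over LacZ control 0.533% (0.958%) were called lower, and 4.11% (13.8%) were lower at an unadjusted p under 0.05. Among the 21 early nucleolar factors, 10 were called lower in knockdown over non-injected, with a median of -0.66. In knockdown over LacZ control 0 were called, 8 were lower at an unadjusted p under 0.05 and the median was -0.44 (DESeq2). Urb1 (-1.61 ± 0.38) and Urb2 (-0.91 ± 0.34), scaffold proteins that act together on the earliest particle, fell in knockdown over non-injected according to the authors' deposited table, at an adjusted p of 0.000691 and 0.0292. Their values against LacZ control were -1.14 ± 0.37 and -0.29 ± 0.33 in the authors' deposited table, neither called. Mak16, Rpf1, Rrp1 and its paralog Rrp1b belong, from work in yeast, to one module of the first folding domain. Mak16 (-0.80 ± 0.22) and Rpf1 (-0.64 ± 0.22) fell in knockdown over non-injected according to the authors' deposited table, at an adjusted p of 0.00452 and 0.0433, while Rrp1 stood at -0.34 ± 0.19 and Rrp1b at -0.59 ± 0.23, neither called. For Rrp1 the 95% interval ran from -0.72 to 0.03 in knockdown over non-injected and from -0.45 to 0.25 in knockdown over LacZ control.

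Other early factors called lower in knockdown over non-injected in the authors' deposited table were Ppan (-1.26 ± 0.25), Nip7 (-0.92 ± 0.24, adjusted p = 0.00497), Surf6 (-0.81 ± 0.25, adjusted p = 0.0116) and Sdad1 (-0.78 ± 0.23, adjusted p = 0.0103). Nop2 (-0.75 ± 0.28), a cytosine methyltransferase of large subunit RNA, and Nifk (-0.63 ± 0.22), which also binds the proliferation antigen Ki-67, fell in that comparison of the authors' deposited table (adjusted p = 0.0468 and 0.0344). Brix1 (-0.69 ± 0.27), its partner Ebna1bp2 (-0.68 ± 0.26), Nop16 (-0.66 ± 0.27), Noc2l (-0.62 ± 0.28) and the methyltransferase Ftsj3 (-0.61 ± 0.31) had values of similar size without a call in the authors' deposited table. Nearest 0 were Rsl1d1 at -0.12 ± 0.18, Rrp1 at -0.34 ± 0.19, Noc3l at -0.40 ± 0.24, Nsa2 at -0.42 ± 0.25 and Rbm28 at -0.49 ± 0.25 in the authors' deposited table. Rsl1d1, the most abundant member per kb, also stood at -0.15 ± 0.17 in knockdown over LacZ control and 0.03 ± 0.18 in LacZ control over non-injected in the authors' deposited table, with 95% intervals of -0.48 to 0.19 and -0.33 to 0.39. Among the called early factors whose value against LacZ control has not been given, the authors' deposited table has Rpf1 (-0.57 ± 0.21), Ppan (-0.54 ± 0.24) and Nop2 (-0.32 ± 0.27), none called there. In LacZ control over non-injected the authors' deposited table has Urb2 (-0.62 ± 0.34), Urb1 (-0.47 ± 0.39), Nop2 (-0.43 ± 0.29), Nip7 (-0.16 ± 0.25), Mak16 (-0.15 ± 0.22), Rpf1 (-0.07 ± 0.23) and Nifk (0.09 ± 0.22), also without a call. Nifk thus had a value slightly above 0 between the control groups.

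Pes1, Bop1 and Wdr12 form the PeBoW complex, which is needed to process the spacer between the large subunit RNAs. In knockdown over non-injected, Wdr12 (-0.86 ± 0.25) and Bop1 (-0.84 ± 0.30) fell according to the authors' deposited table, at an adjusted p of 0.0113 and 0.0463, and Pes1 stood at -0.54 ± 0.25 (adjusted p = 0.125). Against LacZ control the values were -0.71 ± 0.24, -0.30 ± 0.28 and -0.07 ± 0.23 in the same order in the authors' deposited table, and none was called. In LacZ control over non-injected the authors' deposited table has Bop1 (-0.54 ± 0.30), Pes1 (-0.47 ± 0.25) and Wdr12 (-0.15 ± 0.26), and none was called.

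The DEAD-box helicases unwind RNA within the pre-ribosome. Of 7, 5 were called lower in knockdown over non-injected and 0 in knockdown over LacZ control, where 1, Ddx51, was lower at an unadjusted p under 0.05 (DESeq2). Ddx51, which is known to free the precursor RNA from the U8 small nucleolar RNA, fell by 1.13 ± 0.29 in knockdown over non-injected according to the authors' deposited table, at an adjusted p of 0.00337 and stood at -0.67 ± 0.28 against LacZ control. Ddx54 (-0.85 ± 0.28), Ddx56 (-0.76 ± 0.23), Ddx24 (-0.73 ± 0.22) and Ddx27 (-0.70 ± 0.22) fell as well in knockdown over non-injected in the authors' deposited table, with adjusted p of 0.0215, 0.0103, 0.0120 and 0.0176. Ddx18 at -0.67 ± 0.26 and Ddx55 at -0.56 ± 0.24 were not called according to the authors' deposited table, at an adjusted p of 0.0760 and 0.0922. All 7 helicases had a negative value in knockdown over LacZ control and in LacZ control over non-injected, as had 53 and 44 of the 54 members. The sign in knockdown over non-injected, the sum of these values, follows from that. In LacZ control over non-injected the helicases ranged from -0.55 to -0.20. For the other called helicases the authors' deposited table has Ddx54 (-0.48 ± 0.27), Ddx24 (-0.33 ± 0.21) and Ddx27 (-0.18 ± 0.21) in knockdown over LacZ control, and Ddx27 (-0.52 ± 0.23), Ddx51 (-0.46 ± 0.29), Ddx24 (-0.40 ± 0.22) and Ddx54 (-0.37 ± 0.29) in LacZ control over non-injected, none of which was called.

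Rpf2 and Rrs1, which dock the 5S RNA particle, and Grwd1, the chaperone of Rpl3, were all called lower in knockdown over non-injected, at -0.86 ± 0.29, -0.89 ± 0.27 and -1.24 ± 0.25 according to the authors' deposited table, at an adjusted p of 0.0314, 0.0105 and 0.000152. In knockdown over LacZ control these stood at -0.70 ± 0.27, -0.53 ± 0.25 and -0.66 ± 0.24 according to the authors' deposited table, without a call, with unadjusted p of 0.0139, 0.0352 and 0.00602 by DESeq2. Between LacZ control and non-injected embryos the authors' deposited table has Grwd1 (-0.58 ± 0.26), Rrs1 (-0.36 ± 0.27) and Rpf2 (-0.16 ± 0.29), without a call.

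Of 4 nucleolar GTPases 3 were called lower in knockdown over non-injected. Gnl3 (-1.02 ± 0.24), also known as nucleostemin, Gtpbp4 (-0.74 ± 0.22) and Gnl2 (-0.64 ± 0.24) fell according to the authors' deposited table, at an adjusted p of 0.00154, 0.0134 and 0.0498. Gnl3l, the paralog of Gnl3, stood at -0.68 ± 0.30 in knockdown over non-injected (adjusted p = 0.103) and at -0.76 ± 0.29 in knockdown over LacZ control (adjusted p = 0.149) in the authors' deposited table. Gnl3 stood at -0.72 ± 0.23 in knockdown over LacZ control according to the authors' deposited table, at an adjusted p of 0.0884. For the other called GTPases the authors' deposited table has Gtpbp4 (-0.60 ± 0.21) and Gnl2 (-0.19 ± 0.23) in knockdown over LacZ control, neither called. Between LacZ control and non-injected embryos the authors' deposited table has Gnl2 (-0.44 ± 0.24), Gnl3 (-0.30 ± 0.25) and Gtpbp4 (-0.13 ± 0.23), none called.

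Mdn1, a very large ATPase that strips factors from the particle, fell by 0.71 ± 0.22 in knockdown over non-injected according to the authors' deposited table, at an adjusted p of 0.0166. Its substrate Nle1 stood at -0.74 ± 0.30 and the ATPase Nvl at -0.44 ± 0.22 according to the authors' deposited table, at an adjusted p of 0.0783 and 0.144. Against LacZ control Mdn1, Nle1 and Nvl stood at -0.47 ± 0.21, -0.20 ± 0.29 and -0.45 ± 0.21 according to the authors' deposited table, none called. Between LacZ control and non-injected embryos the authors' deposited table has Nle1 (-0.54 ± 0.31), Mdn1 (-0.24 ± 0.23) and Nvl (0.00 ± 0.22), and again none was called.

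Las1l cuts ITS2, Nol9 phosphorylates the cut RNA, and Pelp1, Tex10 and Senp3 form with them a larger complex known as the rixosome. In knockdown over non-injected Las1l (-0.91 ± 0.24), Nol9 (-0.87 ± 0.28) and Senp3 (-0.80 ± 0.26), a SUMO protease, fell according to the authors' deposited table, at an adjusted p of 0.00409, 0.0165 and 0.0212. Pelp1 stood at -0.71 ± 0.29 (adjusted p = 0.0798) and Tex10 at -0.20 ± 0.23 (adjusted p = 0.571) according to the authors' deposited table. Tex10 was the single member with a positive value in knockdown over LacZ control, 0.03 ± 0.22 in the authors' deposited table, with a 95% interval of -0.39 to 0.46, while the rest of the complex ranged from -0.61 to -0.37 there. For its called members the authors' deposited table has Las1l (-0.51 ± 0.22), Senp3 (-0.39 ± 0.25) and Nol9 (-0.37 ± 0.26) in knockdown over LacZ control, and Nol9 (-0.49 ± 0.28), Senp3 (-0.41 ± 0.27) and Las1l (-0.40 ± 0.24) in LacZ control over non-injected.

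Of the 8 factors of export and cytoplasmic maturation, 5 were called lower in knockdown over non-injected and Zfp622 in knockdown over LacZ control. Zfp622 (chromosome 15, 25984366 to 25998481 of GRCm38, plus strand) corresponds to yeast Rei1, which acts in recycling an export factor from the cytoplasmic particle. Its mean normalized count was 3421, and it stood at -0.51 ± 0.33 in LacZ control over non-injected according to the authors' deposited table, at an adjusted p of 0.853. Mrto4 (-0.91 ± 0.21), which holds the place of the stalk protein, Nmd3 (-0.79 ± 0.21), the export adaptor, and Lsg1 (-0.81 ± 0.21), the GTPase that releases Nmd3, fell in knockdown over non-injected according to the authors' deposited table, at an adjusted p of 0.00103, 0.00466 and 0.00524. Eif6, the most abundant of the 8 per kb, fell by 0.56 ± 0.19 in that comparison of the authors' deposited table (adjusted p = 0.0317). Against LacZ control the authors' deposited table has Nmd3 (-0.58 ± 0.20), Mrto4 (-0.57 ± 0.20), Lsg1 (-0.48 ± 0.20) and Eif6 (-0.34 ± 0.18), none called. In LacZ control over non-injected the authors' deposited table has Mrto4 (-0.34 ± 0.21), Lsg1 (-0.32 ± 0.22), Eif6 (-0.22 ± 0.20) and Nmd3 (-0.21 ± 0.21), and none was called.

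The releasing factors of Eif6 were not called in any comparison. Sbds, the gene whose human counterpart is mutated in Shwachman-Diamond syndrome, stood at -0.37 ± 0.23 and Efl1 at 0.06 ± 0.36 in knockdown over non-injected according to the authors' deposited table, at an adjusted p of 0.287 and 0.965. For Efl1 the 95% interval in knockdown over non-injected ran from -0.65 to 0.76. Against LacZ control Sbds stood at -0.45 ± 0.22 and Efl1 at -0.03 ± 0.35 in the authors' deposited table, beside -0.34 ± 0.18 for Eif6, none called. Rsl24d1 stood at -0.42 ± 0.21 in knockdown over non-injected and -0.61 ± 0.20 in knockdown over LacZ control according to the authors' deposited table, at an adjusted p of 0.176 and 0.0965.

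In 4 other lists of the ribosome pathway some genes were called lower in knockdown than in non-injected embryos and 0 were called higher, and of each list the called gene with the smallest adjusted p is named. Of 47 large subunit ribosomal protein genes 18 were called lower (38.3%, median -0.56), led by Rpl38 at -1.03 ± 0.26 according to the authors' deposited table, at an adjusted p of 0.00368. Of 51 genes of small subunit processing and maturation 28 were called lower (54.9%, median -0.72), led by Tbl3 at -1.26 ± 0.24 according to the authors' deposited table, at an adjusted p of 3.87e-05. Of 17 proteins of small nucleolar RNA particles 8 were called lower (47.1%, median -0.71), led by Gar1 at -0.99 ± 0.25 according to the authors' deposited table, at an adjusted p of 0.00244. Of 16 genes of the RNA polymerase I machinery 8 were called lower (median -0.62), led by Polr1e at -0.72 ± 0.17 according to the authors' deposited table, at an adjusted p of 0.00161. Over all genes 7.76% were called lower in this comparison, and 13.5% of those with a mean count of 100 or more. The share of assembly factors called lower, 59.3%, was not tested against the shares of the lists. Against LacZ control the medians of the 4 lists were -0.45, -0.45, -0.54 and -0.48 in the same order, beside -0.47 for the assembly factors, with 0, 2, 2 and 0 genes called lower, of which Utp18 (-1.09 ± 0.24) and Znhit3 (-0.93 ± 0.24) had the smallest adjusted p of their lists, 0.00973 and 0.0268, in the authors' deposited table. Of all genes 0.533% were called lower against LacZ control, and 0.958% of those with a mean count of 100 or more. At an unadjusted p under 0.05, 23 of 47, 26 of 51, 10 of 17 and 9 of 16 genes of the lists were lower against LacZ control and 0 higher. Over all genes with a p-value 4.11% were lower there, and 13.8% at 100 counts or more. In LacZ control over non-injected the medians were -0.13, -0.21, -0.13 and -0.28, beside -0.27, with 0 calls by DESeq2. There 0 of 47, 10 of 51, 3 of 17 and 2 of 16 genes were lower at an unadjusted p under 0.05. Over all genes with a p-value 2.62% were lower in this way, and 6.02% at 100 counts or more.

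**Figure D4:**
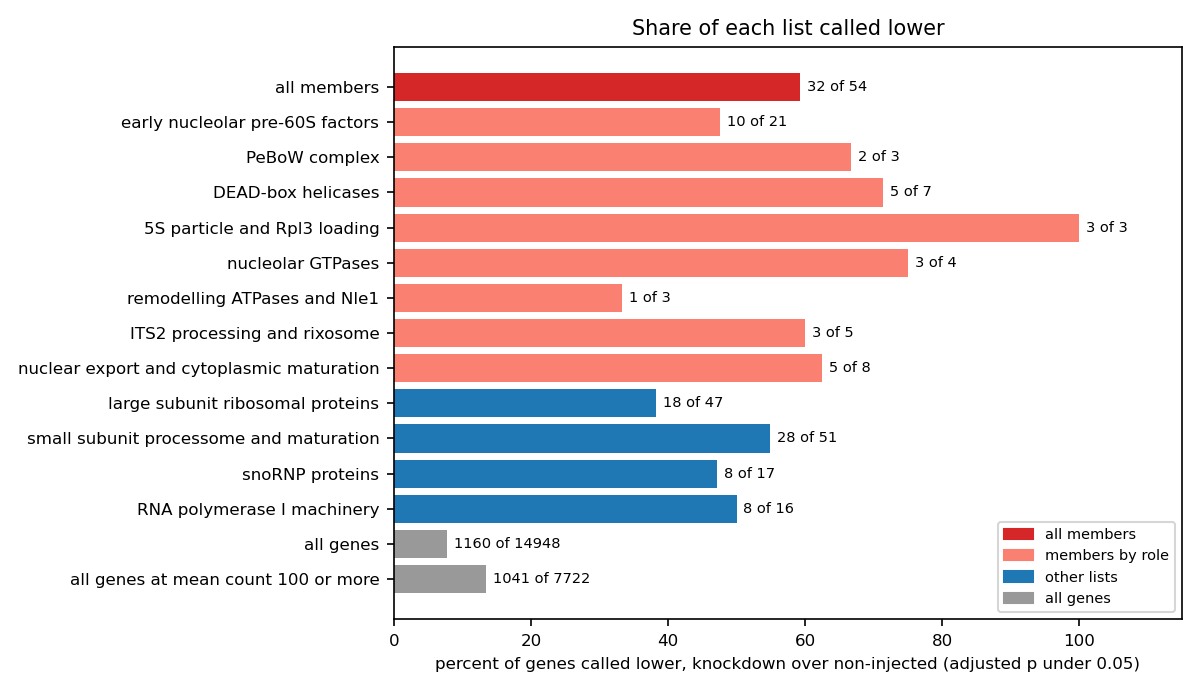
Percent of genes called lower in knockdown over non-injected (adjusted p under 0.05) for all members, the members by role, 4 other lists of the ribosome pathway and all genes, with the counts beside each bar. The 59.3% of all members stands beside 7.76% of all genes and 13.5% of genes with a mean count of 100 or more; several roles hold 3 to 5 genes.

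Promoter windows of 300 bases, 250 before and 50 after the annotated start, were found in RefSeq (GRCm38.p6) for 46 of the 54 members. Motifs were searched on both strands. The ETS motif CCGGAAGT was in a window of 13 of 46 members (28.3%), of 10.8% of the 5947 genes with a mean count of 100 or more, and of 4.31% of all 27025 genes with a window. The E-box CACGTG, a palindrome that MYC and other factors bind, was in 10 of 46 (21.7%), against 12.7% and 8.09%. The GC box GGGCGG was in 32 of 46 (69.6%), against 69.8% and 38.2%. The core of the NRF1 motif, GCATGCGC, was in 2 (4.35%, against 7.05% and 3.05%), and CTCGCGAG in 1 (2.17%, against 3.04% and 1.04%). Members called lower in knockdown over non-injected held the ETS motif in 7 of 26 (26.9%) and the E-box in 6 of 26 (23.1%), close to the shares over all members.

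Rpf2, Grwd1 and Tex10 were the members that held both the ETS motif and the E-box in their windows. The stretches below lie before a RefSeq start of members called lower in knockdown over non-injected and are shown to place the motifs, given in capitals, in their sequence. They are written 5′ to 3′ on the strand of the gene. In Grwd1 (chr7:45830796-45830853, minus strand), Nip7 (chr8:107056749-107056806, plus) and Rpf2 (chr10:40246989-40247046, minus) the ETS motif begins 39, 103 and 42 bases before the start, and in Rpf2 an E-box follows in lower case, 26 bases before the start. RefSeq gives Rpf2 another start, which lies inside the stretch shown, and counted from it the same ETS motif and E-box lie 18 and 34 bases after the start. By the GENCODE annotation the stretch of Grwd1 lies within the gene. Most of the stretch of Rpf2 does too, with its ETS motif and E-box, and only the last bases of that of Lsg1 reach into the gene. In Surf6 (chr2:26902888-26902921, minus) and Lsg1 (chr16:30587590-30587635, minus) the ETS motif lies on the other strand. In Nmd3 (chr3:69721916-69721971, plus) and Nop2 (chr6:125131798-125131853, plus) capitals mark the E-box, which begins 114 and 60 bases before the start. A match describes these letters only and does not show that a factor binds.
Grwd1: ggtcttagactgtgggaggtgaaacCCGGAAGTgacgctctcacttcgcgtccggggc
Nip7: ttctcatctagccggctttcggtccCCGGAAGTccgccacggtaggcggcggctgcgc
Rpf2: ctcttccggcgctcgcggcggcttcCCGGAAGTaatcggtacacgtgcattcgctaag
Surf6: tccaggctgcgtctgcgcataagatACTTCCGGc
Lsg1: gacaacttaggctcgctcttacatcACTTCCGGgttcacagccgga
Nmd3: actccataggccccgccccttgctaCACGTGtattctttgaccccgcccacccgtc
Nop2: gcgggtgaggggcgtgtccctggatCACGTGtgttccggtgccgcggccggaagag

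**Figure D5:**
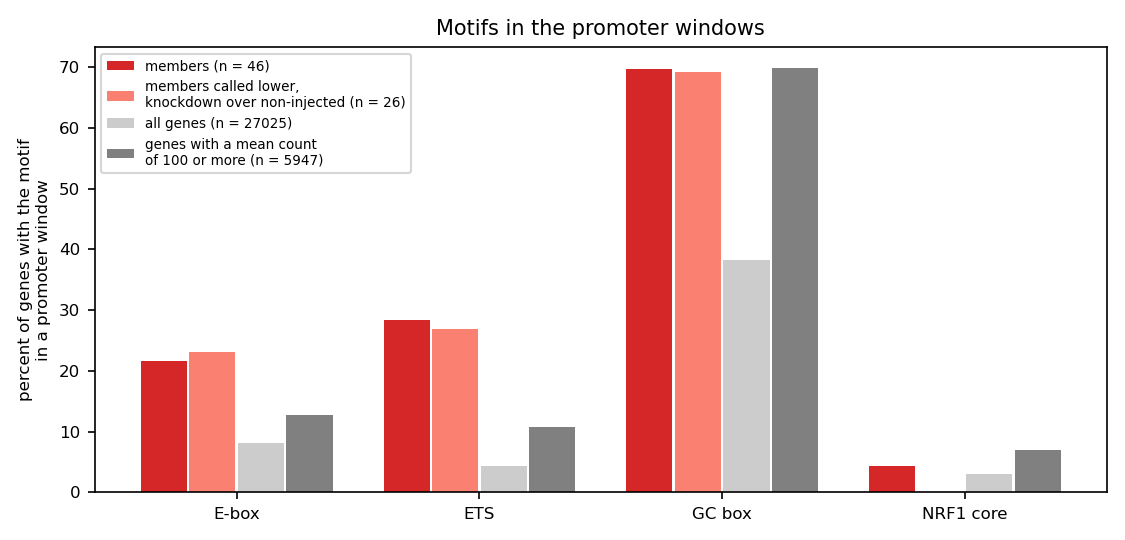
Percent of genes with the E-box, the ETS motif, the GC box or the NRF1 core in a promoter window, for the 46 members with a window, the 26 of them called lower in knockdown over non-injected, all genes, and genes with a mean count of 100 or more. The ETS motif stands at 28.3% of members and 10.8% of the more abundant genes, and the GC box at 69.6% and 69.8%.

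Some members are uncertain as counts. The protocol, Smart-seq2, does not record the strand, and exons of 18 members overlap a gene on the opposite strand, for 4 of them over more than 10% of the exon length: Mak16 with Tti2 (39.4%), Nsa2 with Fam169a and Gfm2 (37.2%), Noc2l with Samd11 (20.9%) and Ddx54 with Gm43579 and Cfap73 (15.5%). Without the 18, 21 of 36 members were called lower in knockdown over non-injected, with a median of -0.71. Processed pseudogenes share sequence with 6 members at over 10% of their 50-base words: Ddx18 (62.7%), Mrto4 (25.8%), Rsl24d1 (23.0%), Nsa2 (22.2%), Pes1 (21.0%) and Senp3 (14.5%). On the same strand, exons of 4 members overlap another gene. These are Efl1 with Gm45807 (394 bases), Gnl3 with Snord69, Gm24916 and Snord19 (235), Rsl24d1 with Gm20509 (226) and Ppan with Gm24067 and Gm23008 (165). Zfp622 and Urb1 have no overlap on either strand and share 0% of their words elsewhere.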

How the data were processed

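Tables of the authors' own comparisons were used, 1 of genes for each pair of the groups. Reads were handled with STAR 2.5.2b, SAMtools, HTSeq 0.9.1 and DESeq2 1.18.1 on GRCm38.p5, per the submitters' processing notes; RUVSeq factors and shrunken fold changes are known from the names of the deposited tables only. Per the file headers, the deposited values are a mean normalized count (a signal after division by size factors), a log2 fold change and its error, a Wald statistic (a score), and p-values before and after adjustment. Shrinkage draws the fold changes of genes with few reads closer to 0. Values per library (0 columns) and the repeat tables were not used, so depth is unknown and no refit was made.

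Gene identifiers, stripped of their version, were looked up in GENCODE vM21 (GRCm38). Medians, counts of calls, 95% normal intervals and Benjamini-Hochberg adjustments were computed with pandas 2.3.3, NumPy 2.4.6 and SciPy 1.17.1, and the adjustment and motif search were tested on simulated data. Exon lengths are the union of all annotated transcripts. The members and lists were chosen with earlier results of these data known. Every called member is named with its values in all 3 comparisons. The extremes of each role are named as well, some of them without all 3 values. Of other lists the called gene with the smallest adjusted p is named.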

Additional observations from a re-analysis of the deposited data

How the results depend on the processing

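No paired analysis was possible because the tables hold no values per library, so leaving out replicates was not run either. Of 36 alternative values for the counts of called members and their medians, 32 stayed close and 4 moved. The rule for close was loose. A count stayed close within a fixed ratio to the main count, wide enough to take 24 beside 32. A median stayed close if it moved by less than the median standard error of the members. A count of calls was not given a direction, and 0 of the medians changed theirs. Some of the 32 could not differ from the main value. In LacZ control over non-injected a part of 0 calls is again 0, and every member with a p-value also has an adjusted p. In knockdown over non-injected the 32 calls became 12 at an adjusted p under 0.01 and 21 without members that overlap a gene on the opposite strand, where 36 members were left. Adjustment over every deposited p-value kept 24 of those 32 calls. In knockdown over LacZ control the 1 call became 0 at an adjusted p under 0.01, and 2, with Nifk added, when adjusted over genes with a mean count of 100 or more. Leaving out the 6 members that share sequence with pseudogenes, an alternative chosen after seeing the data, left 30 calls in knockdown over non-injected. Centring on genes with a mean count of 100 or more moved the members' medians to -0.39, -0.63 and -0.27 in knockdown over LacZ control, knockdown over non-injected and LacZ control over non-injected.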

Other observations

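Genes of the MYC network, whose products bind the E-box, did not move one way in knockdown over non-injected. Myc fell by 1.16 ± 0.36 according to the authors' deposited table, at an adjusted p of 0.0241, and Mga, a repressor that pairs with Max, fell by 0.75 ± 0.20 in the authors' deposited table, with 0.00367 as its adjusted p. Max, the common partner, rose by 1.18 ± 0.26 and Mxd1, a competitor of Myc for Max, stood 0.78 higher according to the authors' deposited table, at an adjusted p of 0.000741 and 0.00514. Over all genes 1108 of 14948 were called higher there and 1160 lower. In knockdown over LacZ control and LacZ control over non-injected Myc stood at -0.67 and -0.48, Mga at -0.45 and -0.30. Max stood at 0.70 and 0.48 and Mxd1 at 0.60 and 0.18, none of these called. Of the 11 genes 0 were called by DESeq2 in knockdown over LacZ control. There 2 were higher and 1 lower at an unadjusted p under 0.05, beside 1329 and 1357 of 33028 genes with a p-value. The mean normalized count was 1521 for Max and 69.3 for Myc.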
